A study of Mus musculus with 6 samples.

Results

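The genes of sterol synthesis and cholesterol handling were examined in mouse Th17 cells that carry wild-type (WT) RORγt or the RORγt N275D substitution. The set was a list of 33 gene symbols, divided by role into 18 enzymes of sterol synthesis, 5 genes that control SREBP, 5 genes of uptake, transport and storage, and 5 genes of the LXR receptors, efflux and oxysterols. All 33 were found by symbol in the deposited table of 16244 genes, and 31 of them reached the mean of 10 normalized reads over the 6 libraries that was required for a test. *Nr1h3* and *Ch25h* did not.

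Naive CD4+ T cells were isolated from the spleens of WT mice and of RORγt N275D knock-in mice, in which the substitution in the ligand-binding domain had been made with CRISPR-Cas9 on a C57BL/6 background. The cells of both genotypes were activated through CD3 and CD28 and cultured for 3 days under pathogenic Th17 conditions with IL-6, IL-1β and IL-23, and 3 RNA-seq libraries were made per genotype. The methods can also be read as adding IL-1β and IL-23 to a mix that holds TGF-β and antibodies to IL-4 and IFN-γ, so whether TGF-β was present is uncertain. The WT mice were listed from another source than the knock-in line, and the zygosity of the mutant donors was not given in the sources used here. Mice in the study were in general 6 to 12 weeks old, with no age given for these donors in particular. No label says that replicates came from separate mice or cultures, so p-values measure the spread between these libraries, which may be technical. In bulk RNA, fewer cells of a type and less RNA per cell cannot be told apart.

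The libraries held between 17659035 and 18510878 reads on genes. WT replicate 3 stood farthest from the rest of its group, with a median absolute deviation of 0.0686 on the log2 scale against 0.0371 to 0.0503 in the other 5 libraries. *Cd4*, which marks the starting cells, fell from 9143 to 7591 normalized reads, and *Il17a*, the main Th17 cytokine gene, rose from 27495 to 32152.

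Cells build cholesterol from acetyl-CoA through the mevalonate pathway, which passes through farnesyl diphosphate, squalene and lanosterol. The enzymes are switched on together by SREBP2, a membrane-bound transcription factor that SCAP escorts to the Golgi and that INSIG proteins hold back when sterols are plentiful. Surplus sterol is oxidized to oxysterols, which activate the LXR receptors and with them the efflux pumps ABCA1 and ABCG1. Intermediates between lanosterol and cholesterol, and some oxysterols, are known to bind the ligand pocket of RORγt, the transcription factor of Th17 cells.

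Most of the 18 listed enzymes of sterol synthesis were lower in N275D than in WT Th17 cells. Of the listed genes of transport and efflux, those that were called were higher. A further list of 11 genes of sterol transport and storage was mixed, with 4 called lower and 3 higher. Among 10 further isoprenoid and sterol enzymes, 3 were called lower and 1 higher. Of the 18 synthesis enzymes, 15 fell and 0 rose at an adjusted p under 0.05 by limma, and 0 were higher at an unadjusted p under 0.05 as well. Across the table, 26.1% of the 11908 genes tested were called lower and 24.7% higher, so that a call in either direction was common (50.9%). For the synthesis enzymes the share called lower was 83.3%. Their median log2 fold change was -0.24, against -0.0026 for all genes tested. Among the genes of uptake, transport and storage, 3 of 5 rose and 0 fell, with a median of 0.17. The 3 include *Mylip*, whose product removes lipoprotein receptors, so this count does not give a direction of uptake. All 3 genes tested of the LXR and efflux group rose, with a median of 0.78. The 5 SREBP control genes were mixed, with 1 higher and 2 lower. With quantile normalization the split of these control genes was 2 higher and 2 lower.

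**Figure D1:**
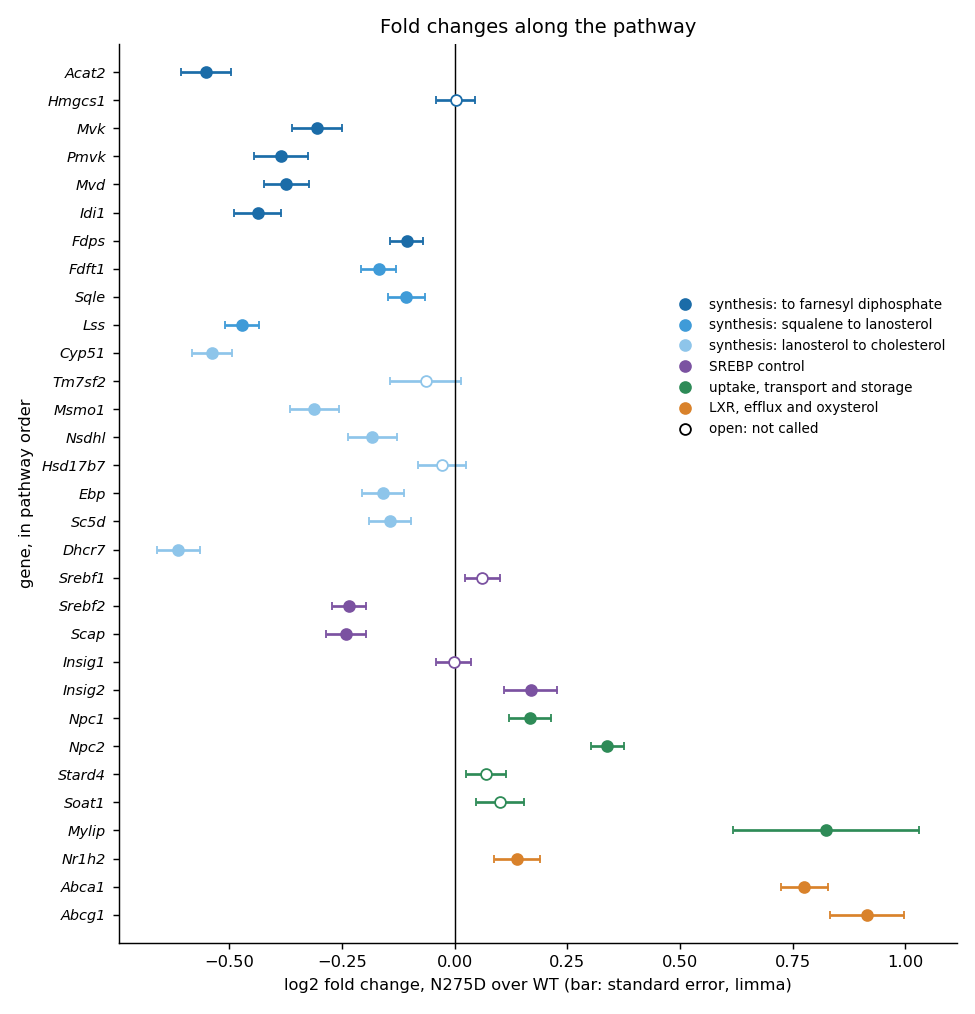
Log2 fold change of each of the 31 tested genes, N275D over WT (x axis), in pathway order (y axis), with bars for the standard error from limma, colours for the role and open symbols for genes that were not called. The synthesis enzymes lie between -0.61 and 0.0022, whereas the LXR and efflux genes lie between 0.14 and 0.91.

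The changes were small in size. No member reached a 2-fold change in either direction, whereas 2.73% of all genes tested were at least 2-fold higher and called, and 0.857% were at least 2-fold lower and called. Within the whole distribution, *Dhcr7* had 2.52% of the tested genes below its log2 fold change and *Abcg1* had 3.36% above. The 3 libraries of one genotype all lay beyond the 3 of the other for 25 of the 31 tested members, 18 of them lower and 7 higher in the mutant. Over all genes tested this was so for 57.7%, with 29.6% lower and 28.1% higher. For such a gene the exact two-sided permutation p is 0.1, the smallest that 3 libraries against 3 allow.

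**Figure D2:**
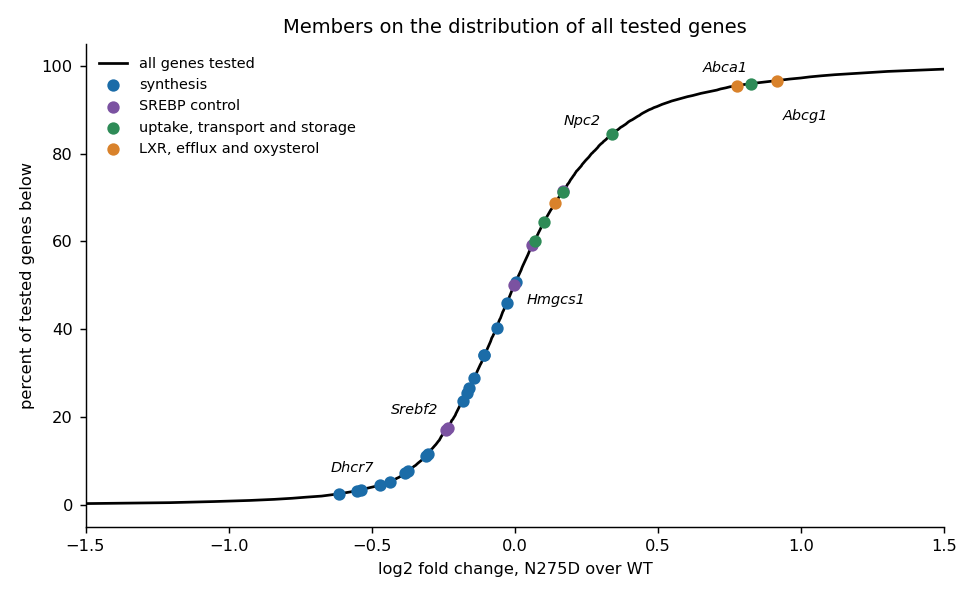
Cumulative distribution of the log2 fold changes of all 11908 genes tested (black line; x axis, log2 fold change N275D over WT; y axis, percent of tested genes below), with the members marked by role. Synthesis enzymes lie on the lower arm down to *Dhcr7* at 2.52%, and *Mylip*, *Abca1* and *Abcg1* lie on the upper arm at 96.0%, 95.5% and 96.6%.

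Some promoters of the members hold letters that SREBP or LXR is known to read. RefSeq windows of 300 bases (250 before and 50 after an annotated start, GRCm38.p6) were present for 27 of the 33 members, 36 windows in all. *Fdps*, *Fdft1*, *Sqle*, *Npc1*, *Stard4* and *Abcg1* had no window and were not searched. The stretches below show the motifs in genes whose transcripts fell, rose or were not called, and were picked with those values known, so they say nothing of how often a motif goes with a direction. The first 5 hold a sterol regulatory element in its full form, TCACNCCAC, or in the looser form TCACNNCA, which the full form contains. The last 2 hold, on the opposite strand, GGTNA and GGTCA with any 5 bases between them. These letters were searched as the direct repeat that LXR is known to bind, with the first base of the second half-site left free. Each is written 5′ to 3′ on the strand of its gene, with up to 30 bases on either side and with the matched letters in capitals. The stretches were cut at the annotated start. *Insig2* also has other annotated starts, whose windows hold no sterol regulatory element in either form.
Hmgcs1, chr13:119690184-119690252, + strand, 137 to 129 bases before the start: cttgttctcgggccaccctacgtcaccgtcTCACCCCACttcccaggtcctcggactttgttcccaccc
Cyp51, chr5:4104748-4104815, - strand, 88 to 81 bases before the start: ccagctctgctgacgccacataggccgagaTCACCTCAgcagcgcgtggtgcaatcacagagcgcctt
Dhcr7, chr7:143830152-143830213, + strand, 32 to 25 bases before one of its starts: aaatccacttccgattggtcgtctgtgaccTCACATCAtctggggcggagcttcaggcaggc
Srebf2, chr15:82147077-82147144, + strand, 162 to 155 bases before the start: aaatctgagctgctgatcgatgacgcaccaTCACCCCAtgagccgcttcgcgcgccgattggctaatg
Insig2, chr1:121332713-121332780, - strand, 161 to 154 bases before the start: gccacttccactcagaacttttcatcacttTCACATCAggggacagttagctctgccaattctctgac
Abca1, chr4:53159918-53159992, - strand, 67 to 53 bases before the start: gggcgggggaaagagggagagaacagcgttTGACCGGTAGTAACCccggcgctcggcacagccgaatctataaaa
Srebf1, chr11:60210609-60210683, - strand, 182 to 168 bases before a start inside the gene: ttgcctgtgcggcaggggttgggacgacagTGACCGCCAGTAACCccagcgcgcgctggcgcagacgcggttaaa

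The full element was found in 1 of the 27 members with a window, *Hmgcs1*, or 1 of the 36 member windows. Over all 32851 RefSeq windows of this length it was found in 1.24%. Shares of all windows compare with counts of member windows and not of members, as some members have several windows. The looser form was found in 10 of the 27 members, or 11 of the 36 member windows, and in 13.8% of all windows. Of these 10 members, 7 were called lower (*Cyp51*, *Dhcr7*, *Msmo1*, *Nsdhl*, *Pmvk*, *Sc5d* and *Srebf2*), *Insig2* was called higher, and *Hmgcs1* and *Hsd17b7* were not called. Of the 17 members without it, 7 were called lower, 4 higher and 4 were not called, and the other two were not tested. CCAAT, the letters of the NF-Y box, were found in 21 of the 27 members, among them 14 of the 15 synthesis enzymes with a window and not *Acat2*. They were in 22 of the 36 member windows and in 37.4% of all windows. CACGTG was found in 6 members (7 windows) and in 7.15% of all windows. The half-site AGGTCA, the core of the letters bound by ROR receptors, was found in 3 members (5 windows) and in 16.3%. The direct repeat was found in 2 members (2 windows), *Abca1*, which rose, and *Srebf1*, which was not called, and in 0.207% of all windows. All were searched on both strands, and a match is a description of the letters and not of a bound site.

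**Figure D3:**
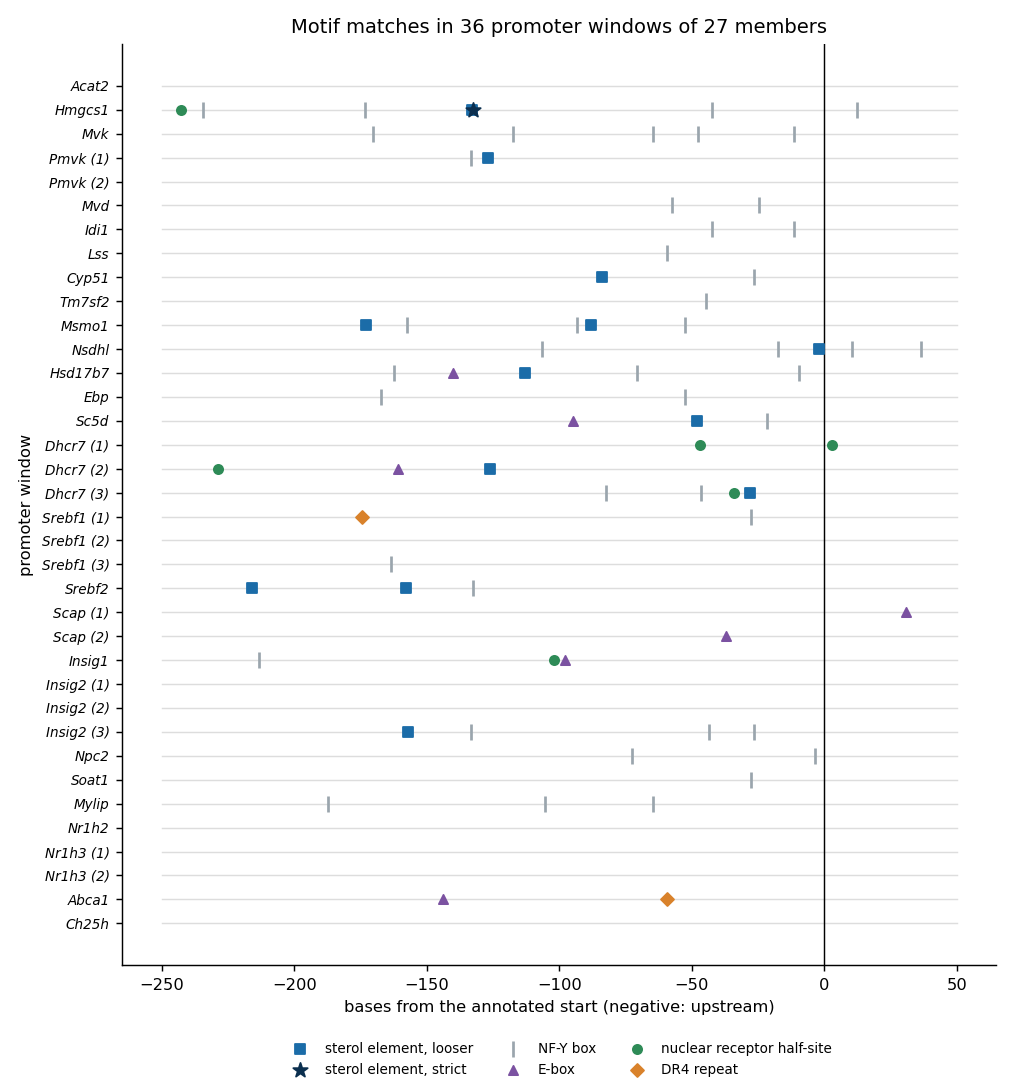
Positions of the motif matches (symbols by motif) in 36 promoter windows of 27 members, in bases from the annotated start (x axis, negative upstream), with 1 row per window (y axis). The NF-Y box is the most frequent mark, in 22 of 36 windows. Among these windows the direct repeat occurs in those of *Abca1* and *Srebf1* only, and *Abcg1* has no window.

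The first segment of the pathway runs from acetyl-CoA to farnesyl diphosphate, and 6 of its 7 enzymes fell. *Acat2* (GRCm38 chromosome 17, 12943042 to 12960725), which joins acetyl-CoA units at the entrance, had 2023, 1823 and 2179 normalized reads in WT libraries. In the mutant libraries it had 1347, 1365 and 1385. All 3 mutant libraries lay below all WT libraries, and the log2 fold change was -0.55 ± 0.055 (SE; adjusted p = 6.43e-07). *Acat2* has a close paralog, *Acat3*, with which it may share reads. *Hmgcs1* (chromosome 13, 119690351 to 119708260), which makes the next intermediate, had 5621, 5853 and 5195 normalized reads in WT and 5398, 5601 and 5679.5 in N275D. Its libraries overlapped and the log2 fold change was 0.0022 ± 0.043 (SE; adjusted p = 0.97). An antisense transcript overlaps 12.1% of its exon bases.

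The mevalonate steps that follow moved alike. *Mvk*, *Pmvk* and *Mvd*, the kinases and the decarboxylase that turn mevalonate into isopentenyl diphosphate, fell by 0.31, 0.38 and 0.37 on the log2 scale. Their mutant levels were 488, 652 and 1195 normalized reads, against 604, 853 and 1549 in WT. *Idi1* (chromosome 13, 8885606 to 8892396), the isomerase that prepares the 2 isoprene units for joining, had 7169, 7611 and 6319.9 normalized reads in WT and 5222, 5094 and 5221 in N275D. The genotypes did not overlap although the WT libraries were spread widely, and the log2 fold change was -0.44 ± 0.052 (SE; adjusted p = 3.80e-06). *Fdps*, the farnesyl diphosphate synthase, fell by a smaller amount, from 4046 ± 76.8 to 3757 ± 57.1 normalized reads (SD, n = 3; log2 fold change -0.11, adjusted p = 0.0220). It shares 26.7% of its exon bases with *Gm43738* on the same strand. The call of *Fdps* was lost with quantile normalization (adjusted p = 0.286) and without WT replicate 1, WT replicate 2, N275D replicate 1 or N275D replicate 2 (adjusted p = 0.0805, 0.0526, 0.0595 and 0.105).

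The second segment, from farnesyl diphosphate to lanosterol, has 3 enzymes here and all of them fell. *Fdft1*, the squalene synthase, went from 2783 to 2476 normalized reads (log2 fold change -0.17, adjusted p = 0.00171), and 18.3% of its exon bases overlap *Ctsb* on the other strand. *Sqle*, the squalene epoxidase and a slow step of the pathway, went from 2932 to 2721 (log2 fold change -0.11, adjusted p = 0.0401). That call was lost with quantile normalization (adjusted p = 0.45) and with any library but WT replicate 3 left out, with adjusted p from 0.0607 to 0.189. *Lss* (chromosome 10, 76531565 to 76557139), which closes the rings to give lanosterol, moved further. It had 3752, 3724 and 3824 normalized reads in WT and 2714, 2669 and 2764 in N275D. All mutant libraries lay below all WT libraries, and the fall of 0.47 on the log2 scale had a standard error of 0.037 and an adjusted p of 3.83e-08.

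**Figure D4:**
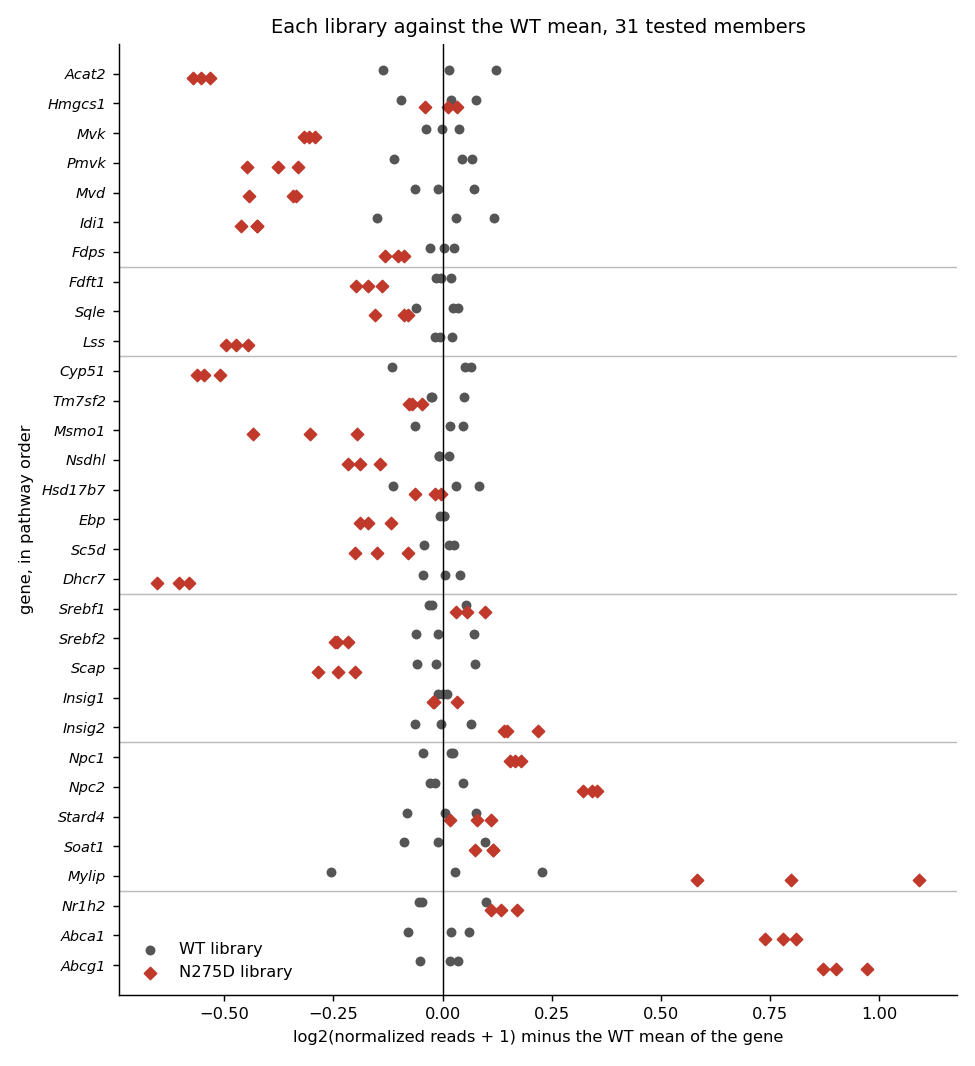
Each library of the 31 tested genes as log2(normalized reads + 1) minus the WT mean of that gene (x axis), in pathway order (y axis), with circles for the 3 WT and diamonds for the 3 N275D libraries. For 16 of the 18 synthesis enzymes the 3 mutant libraries lie to the left of all WT libraries.

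The third segment converts lanosterol to cholesterol and yields the intermediates that are known as RORγt ligands. Of its 8 enzymes, 6 fell. The first of them, *Cyp51* (chromosome 5, 4080674 to 4104697), the lanosterol demethylase, had 7481, 7413 and 6603 normalized reads in WT and 4898, 4849 and 5029 in N275D. Even the lowest WT library was above every mutant library, and the log2 fold change was -0.54 ± 0.045 (SE; adjusted p = 6.94e-08). *Dhcr7* (chromosome 7, 143823167 to 143848410), the reductase of the last ring double bond, showed the largest fall of the set. It had 1425, 1343 and 1389.9 normalized reads in WT and 925, 911 and 879.9 in N275D, a level 1.53 times higher in WT. The log2 fold change was -0.61 ± 0.047 (SE; adjusted p = 3.10e-08).

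The enzymes between these ends moved less. *Msmo1*, which oxidizes the methyl groups at carbon 4, fell by 0.31 on the log2 scale, from 2245 to 1812 normalized reads. *Nsdhl*, which removes them, went from 635 to 559.6 (log2 fold change -0.18). *Ebp*, the isomerase of the ring double bond, and *Sc5d*, the desaturase that follows it, had log2 fold changes of -0.16 and -0.14. *Nsdhl* lost its call without N275D replicate 2 (adjusted p = 0.0509), and *Sc5d* lost it without WT replicate 2, N275D replicate 1 or N275D replicate 2 (adjusted p = 0.0567, 0.0993 and 0.0619). The remaining members of the segment were not called. *Tm7sf2*, a sterol reductase, had 214 normalized reads in WT and 204 in N275D (log2 fold change -0.064, adjusted p = 0.513), although its 3 mutant libraries lay below the WT libraries. *Hsd17b7*, a ketosteroid reductase, overlapped between genotypes at 1329 ± 92.9 and 1301 ± 28.2 normalized reads (SD, n = 3). Another sterol reductase gene, *Lbr*, is not a member but was among the further enzymes, and is named after its values were seen. It fell from 3665 normalized reads in WT to 3031 in N275D (log2 fold change -0.27, adjusted p = 4.77e-05 by limma).

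Enzymes of the pathway did not keep their proportions to each other. *Hmgcs1* was taken as a denominator within each library because its group means were nearly equal, although with quantile normalization its log2 fold change was 0.10 (adjusted p = 0.0611). The ratio of *Cyp51* to *Hmgcs1* reads was 1.33, 1.27 and 1.27 in WT and 0.907, 0.866 and 0.885 in N275D, with no overlap. That of *Dhcr7* to *Hmgcs1* was 0.254, 0.229 and 0.268 in WT and 0.171, 0.163 and 0.155 in N275D. Both numerators were picked with their falls known, so these ratios restate the fold changes and add no separate evidence. Summed over the 18 enzymes, the WT libraries held 47435, 47719 and 45046.5 normalized reads and the mutant libraries 38064, 37617 and 38879. The ratio of the sums, N275D over WT, was 0.817, and by segment it was 0.841, 0.835 and 0.774 along the pathway.

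Per kilobase of exon, the order of the levels changed at the top. The length was that of all annotated exons of a gene merged, so ranks between genes depend on the annotation. *Idi1* had 2007 reads per kilobase in WT and 1478 in N275D, and was first of the synthesis enzymes in both. *Cyp51* was the second in WT with 1623, above *Hmgcs1* with 1209.5, whereas in the mutant *Cyp51* had 1116 and *Hmgcs1* 1210.1. *Tm7sf2* was the lowest of the 18 in both genotypes, at 48.5 and 46.4.

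Mitotic genes were lower in the mutant libraries as well. Of a list of 20, 14 were called lower and 1, *Cenpf*, higher, with a median log2 fold change of -0.15 and summed reads from 66259.5 to 71102.5 in WT and from 60601.5 to 62050.1 in N275D. *Bub1b*, *Cdc20* and *Plk1* had the largest falls, of 0.36, 0.36 and 0.32 on the log2 scale. The part of this difference in the levels of the synthesis enzymes was not tested.

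The genes that control SREBP did not move as one. *Srebf2* (chromosome 15, 82147269 to 82205379) encodes SREBP2, the main driver of the sterol enzymes. It had 10266, 10628 and 11269 normalized reads in WT and 9220.3, 9065 and 9038 in N275D. All mutant libraries were lower, with a log2 fold change of -0.23 ± 0.037 (SE; adjusted p = 7.73e-05). *Scap*, the escort protein, moved by nearly the same amount, from 2937 ± 139 to 2483 ± 73.0 normalized reads (SD, n = 3; log2 fold change -0.24, adjusted p = 0.000249), and 13.2% of its exon bases overlap a transcript on the other strand. *Srebf1* (chromosome 11, 60199084 to 60224186) encodes SREBP1, which acts more on fatty acid synthesis. It had 3570.0, 3585 and 3785 normalized reads in WT and 3787, 3722 and 3902 in N275D. These values overlapped, and the log2 fold change of 0.061 (standard error 0.039) had an adjusted p of 0.206. Without WT replicate 3 it was called, with an adjusted p of 0.0279. The ratio of *Srebf1* to *Srebf2* reads rose in every mutant library, from between 0.336 and 0.348 in WT to between 0.411 and 0.432. Which of the *Srebf1* starts was used cannot be told from reads per gene.

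The INSIG proteins, which retain SCAP and SREBP in the endoplasmic reticulum, differed from each other. *Insig1* (chromosome 5, 28071412 to 28078662), itself an SREBP target, had 2728, 2709 and 2689 normalized reads in WT and 2773, 2673 and 2668 in N275D. The libraries were interleaved, and the log2 fold change was -0.0021 ± 0.038 (SE; adjusted p = 0.968). *Insig2* (chromosome 1, 121304353 to 121332662) had 555, 529.6 and 508 normalized reads in WT and 617, 585 and 588 in N275D. All mutant libraries were higher, and the log2 fold change was 0.17 ± 0.058 (SE; adjusted p = 0.0242). That call was lost without WT replicate 2, WT replicate 3 or N275D replicate 1 (adjusted p = 0.0505, 0.0503 and 0.105).

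Among the genes that govern the uptake of sterol, move it or store it, those of the lysosomal exit rose. *Npc2*, the soluble carrier that picks cholesterol up in the lysosome, had 3507 ± 101 normalized reads in WT and 4436 ± 51.9 in N275D (SD, n = 3; log2 fold change 0.34, adjusted p = 1.65e-06). *Npc1*, the membrane protein that takes it over, had 987 ± 26.3 and 1108 ± 9.90 (log2 fold change 0.17, adjusted p = 0.00724). *Stard4*, which carries sterol through the cytosol, had overlapping libraries and a log2 fold change of 0.069 (adjusted p = 0.213). It was called with quantile normalization (0.13, adjusted p = 0.0321), and lay between 0.028 without WT replicate 3 and 0.11 without WT replicate 2. *Soat1*, which esterifies cholesterol for storage, had 1016 normalized reads in WT and 1088 in N275D (log2 fold change 0.10, adjusted p = 0.125), and it was called without WT replicate 1 (adjusted p = 0.0361). *Mylip* (chromosome 13, 45389742 to 45411940) encodes a ubiquitin ligase that removes lipoprotein receptors and is itself an LXR target. It had 19.2, 27.2 and 23.6 normalized reads in WT and 40.9, 35.1 and 50.4 in N275D. The genotypes did not overlap, with a log2 fold change of 0.82 ± 0.21 (SE; adjusted p = 0.00338), though at 23.3 and 42.1 normalized reads on average it was the lowest of the tested members.

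Both efflux transporters rose in each mutant library. *Abca1* (chromosome 4, 53030789 to 53159988), which loads cholesterol onto apolipoproteins, had 748, 771 and 698 normalized reads in WT and 1232, 1294 and 1269 in N275D. The lowest mutant library was well above the highest WT library, and the level was 1.71 times that of WT (log2 fold change 0.78 ± 0.052 SE, adjusted p = 5.15e-09). *Abcg1* (chromosome 17, 31057694 to 31117984), which passes sterol on to larger lipoprotein particles, had 130.2, 138 and 137 normalized reads in WT and 266, 248 and 253 in N275D. This was 1.89 times the WT level, the largest ratio of the set (log2 fold change 0.91 ± 0.083 SE, adjusted p = 1.96e-07). Per kilobase of exon, *Abca1* had 71.3 reads in WT and 122 in N275D and *Abcg1* had 18.5 and 35.0, so that *Abca1* was the higher of the pair in both genotypes.

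Of the LXR receptors, one rose by a small amount and the other was barely detected. *Nr1h2* (chromosome 7, 44549616 to 44553968), which encodes LXRβ, had 1116, 1112 and 1236 normalized reads in WT and 1299, 1245 and 1266 in N275D. The highest WT library came close to the lowest mutant library, and the log2 fold change was 0.14 ± 0.051 (SE; adjusted p = 0.0321). The call was lost without a trend in the prior (adjusted p = 0.0857), with the replicate block (adjusted p = 0.0506) and with any library but WT replicate 3 left out, with adjusted p from 0.0574 to 0.119. *Nr1h3* (chromosome 2, 91184061 to 91202829), which encodes LXRα, had 7.07, 6.05 and 6.88 normalized reads in WT and 9.98, 11.0 and 5.93 in N275D. Its libraries overlapped and it was too low to be tested. *Ch25h*, the enzyme that makes an oxysterol ligand of LXR, was at or below 2 reads in every library, under the floor of 3 counts, and no comparison was possible.

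**Figure D5:**
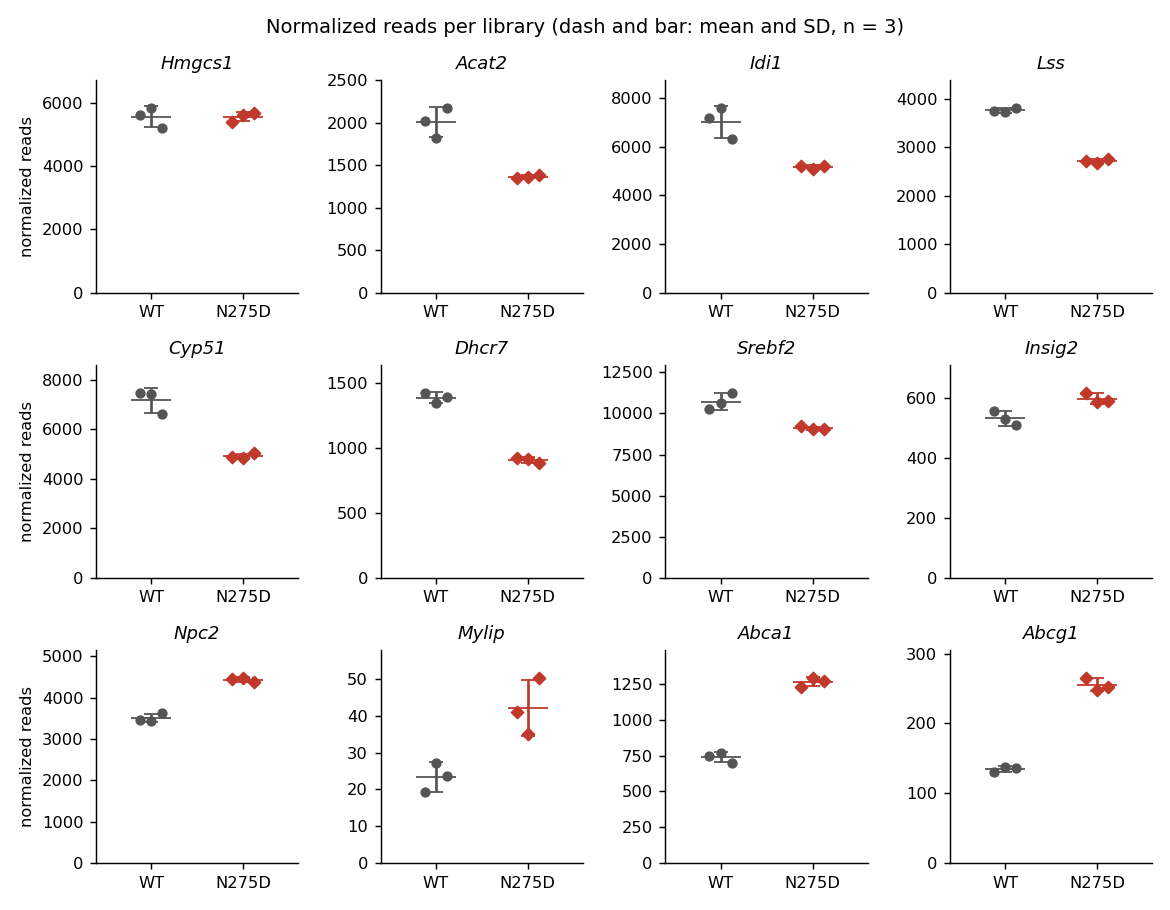
Normalized reads per library (y axis, from 0 in each panel) in WT and N275D cells (x axis) for members of each role, with a dash and bar for the mean and SD of 3 libraries. *Abca1* and *Abcg1* rise from 739 and 135 to 1265 and 255, *Cyp51* and *Dhcr7* fall from 7166 and 1386 to 4925 and 905, and the libraries of *Hmgcs1* overlap.

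Set against synthesis in the same library, efflux genes took a larger share in the mutant. The ratio of *Abca1* to *Cyp51* reads was 0.10, 0.104 and 0.106 in WT and 0.252, 0.267 and 0.252 in N275D. For *Abcg1* over *Dhcr7* the values were 0.0914, 0.103 and 0.0982 in WT and 0.287, 0.272 and 0.287 in N275D. Neither ratio overlapped between genotypes, and both pairs were picked with their values known.

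Markers of other blood cells, some of which express efflux genes, were mixed for myeloid cells and mostly higher for the other types in the mutant libraries. Myeloid markers, 11 of 13 in the table, summed to between 135 and 150.3 normalized reads in WT and between 161 and 189 in N275D. Of the 4 that could be tested, *Cd14* was called higher (log2 fold change 0.99) and *Adgre1* lower (-1.70). *Cd68* and *Mrc1* were not called, with log2 fold changes of 0.32 and 0.42. *Lyz2*, too low to be tested, had between 3.03 and 6.06 normalized reads in WT and between 7.02 and 8.98 in N275D, and *Tyrobp* was at 0 in 5 of 6 libraries. B cell markers (7 of 8 in the table) summed to between 173 and 183 in WT and between 269.5 and 328 in N275D, with 5 of 6 called higher and *Ms4a1* at 0 in 2 WT libraries. Markers of CD8 T and natural killer cells, 5 of 6 in the table, summed to between 201 and 216 in WT. In N275D they summed to between 284 and 325, and 3 of the 4 tested were called higher. *Cd8a* was not called (log2 fold change -0.22). Over all genes tested, 24.7% were called higher. *Sox13*, the 1 gamma delta T cell marker of 5 in the table, was called higher, with a log2 fold change of 0.64. The part of such cells in the levels of *Abca1*, *Abcg1* and *Mylip* was not tested.

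Further genes of the pathway, 35 in all, were less uniform. Of the 33 that could be tested, 5 rose (15.2%, against 24.7% over all genes tested) and 10 fell (30.3%, against 26.1%), with a median log2 fold change of -0.10. *Soat2*, the other cholesterol acyltransferase, had 70.7, 75.7 and 76.6 normalized reads in WT and 236, 189 and 211 in N275D. Every mutant library was above the WT libraries by more than 2-fold, with a log2 fold change of 1.49 ± 0.11 (SE; adjusted p = 1.20e-08), whereas *Soat1* had not been called. The ratio of *Soat2* to *Soat1* reads went from between 0.0651 and 0.0803 to between 0.177 and 0.214. *Vldlr*, a lipoprotein receptor and a known target of the ligase that *Mylip* encodes, had 291, 275.4 and 279 normalized reads in WT and 651, 639 and 699 in N275D (log2 fold change 1.23, adjusted p = 2.14e-10). *Gramd1a*, which moves cholesterol from the plasma membrane to the endoplasmic reticulum, fell by 0.39 on the log2 scale (adjusted p = 1.55e-06).

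The other 3 of these genes that rose were *Erlin1*, *Ggps1* and *Osbp*, named after their values were seen, with log2 fold changes of 0.29, 0.21 and 0.16. *Ggps1* draws on farnesyl diphosphate for geranylgeranyl diphosphate and so leaves the sterol branch. By group, 3 of 10 isoprenoid and sterol enzymes fell and 1 rose, 3 of 9 genes of SREBP processing fell and 1 rose, and 4 of 11 genes of transport and storage fell and 3 rose. The shares that fell, at most 36.4%, lie near the 26.1% over all genes tested. None of 3 testable genes of oxysterol metabolism was called by limma, nor had any an unadjusted p under 0.05. These were *Hsd3b7*, *Gpr183* and *Sult2b1*, with log2 fold changes of -0.11, -0.0097 and -0.10.

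Fatty acid genes that SREBP also drives split in both directions. Of 9, 4 fell and 3 rose, or 44.4% and 33.3%, against 26.1% and 24.7% over all genes tested. *Fasn*, the fatty acid synthase, had 20105, 21256 and 22613 normalized reads in WT and 14007, 14166 and 14533 in N275D (log2 fold change -0.58, adjusted p = 6.91e-09). *Acaca*, which supplies its malonyl-CoA, fell by 0.38. *Me1*, a source of NADPH, rose from 16.1, 13.1 and 12.8 to 42.9, 42.1 and 44.4 normalized reads (log2 fold change 1.56, adjusted p = 1.21e-05). The desaturase genes *Scd1* and *Scd2*, named after their values were seen, rose by 0.30 and 0.17 on the log2 scale.

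Of 4 other known LXR targets, 3 could be tested and 2 rose (66.7%, against 24.7% over all genes tested). *Arl4c* had 266, 256 and 249 normalized reads in WT and 506, 529 and 517 in N275D, a log2 fold change of 1.01 ± 0.065 (SE; adjusted p = 3.30e-09). *Smpdl3a* had 80.7, 114 and 79.6 in WT and 119.8, 138 and 129 in N275D (log2 fold change 0.51, adjusted p = 0.00474), with WT replicate 2 close to the mutant libraries. *Lpcat3*, named after its values were seen, overlapped between genotypes, with a log2 fold change of -0.074 and an adjusted p of 0.277.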

How the data were processed

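The 6 RNA-seq libraries, 3 per genotype, were analysed with genotypes and replicates taken from the labels. Trimming, STAR alignment to mm10, featureCounts (strand setting not given in the sources used here) and DESeq2 are the steps that the methods name. Each deposited signal value is a gene's read number scaled by the authors with 1 factor for the library, and 100% were whole multiples of that factor within 1e-06. The log2 fold changes, q-values, group averages and transcript numbers that the authors deposited were not used. With 17659035 to 18510878 reads on genes per library, counting error was small for all members but the lowest.

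Tests used log2(normalized reads + 1), a scale that understates changes at low levels. Genes with a mean of at least 10, 11908 in all, were tested with limma (version 3.58.1, R 4.3.3) with a trended prior, two-sided, without a block, and p-values were adjusted over all of them by the Benjamini-Hochberg method. Calls needed an adjusted p under 0.05. The fit was also run on simulated counts with no batch effect and with far fewer changed genes than were called here. That run therefore gives no support to the calls. Same-numbered WT and N275D libraries did not deviate together, so numbers were not treated as pairs.

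The members and lists were chosen with earlier results of these data known. Library values are given for members called with an absolute log2 fold change of at least 0.4, for the pairs of *Insig*, *Srebf*, *Nr1h* and *Abc* genes and for *Hmgcs1*. The other members are given by means. Up to 3 called genes with the largest changes are named per further list. The level of the edited gene is not reported here. Coordinates are from RefSeq GRCm38.p6, the same build as mm10 (16135 of 16244 genes matched), exon lengths and overlaps from GENCODE M21. Alternatives were pseudocounts of 0.1 and 10, mean minima of 0 (exclusive) and 100, scaling by TMM or by quantiles, a prior without a trend, a replicate block, a 2-fold minimum and each library left out in turn.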

Additional observations from a re-analysis of the deposited data

How the results depend on the processing

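Of the 24 called members, 18 kept their call in every alternative that tested them, apart from the 2-fold minimum. They were 11 synthesis enzymes, *Srebf2* and *Scap*, all lower, and *Npc1*, *Npc2*, *Mylip*, *Abca1* and *Abcg1*, all higher. *Mylip* was not tested with a mean of at least 100. The 2-fold minimum left 427 genes of the table and 0 members, against 7 members higher and 17 lower, 15 synthesis enzymes lower, 1 SREBP control gene higher and 2 lower, and 3 higher in each of the other groups. SREBP control genes called higher were 2 with quantile normalization, which added *Srebf1* (log2 fold change 0.12), and 0 to 1 with a library left out, the 0 being without WT replicate 2 or N275D replicate 1. With a library left out, members called higher numbered 5 to 7 and lower 13 to 17, and synthesis enzymes lower 11 to 15. Genes of uptake, transport and storage called higher were 3 to 4, LXR and efflux genes higher 2 to 3, and all genes called 5158 to 6398. Without WT replicate 3, members higher, members lower and synthesis enzymes lower numbered 7, 17 and 15, and all genes called 6398.

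The log2 fold change of *Insig1* went to 0.072 with quantile normalization (adjusted p = 0.125) and the cause was not tested. With a library left out, that of *Hmgcs1* ranged from -0.045 to 0.041, of *Hsd17b7* from -0.085 to 0.014 and of *Insig1* from -0.020 to 0.0075. *Fdps*, *Sqle* and *Sc5d* lost the call with quantile normalization (adjusted p = 0.286, 0.45 and 0.0702) and without a trend (0.0643, 0.108 and 0.0522).

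The replicate block gave 6 members higher and 15 lower, with adjusted p of 0.0582 for *Fdps*, 0.0757 for *Sqle* and 0.0506 for *Nr1h2*, and changed no other call of a member. The correlations of same-numbered deviations were -0.045, 0.041 and -0.083. The median of all genes lay within -0.022 and 0.0097 in each alternative. edgeR and DESeq2 on whole reads were not run.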
